A study of Homo sapiens with 26 samples.

Results

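WT-AURKA is the arm of a series on Aurora A kinase in which a human breast cancer line carries AURKA cDNA with no added localization signal, and it was compared with the line that carries the same vector without cDNA. The members were the libraries whose labels name WT AURKA or the plain empty vector: 3 libraries of WT-AURKA clone c1 (lettered D, O and P), 2 of WT-AURKA clone c2 (Q and R) and 3 of the Empty line (E, I and J), 8 of 26 libraries in all. A gene was kept as changed when it was called in the same direction in c1 against Empty and in c2 against Empty.

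All lines derive from MDA-MB-231Luc, a derivative of MDA-MB-231, a mesenchymal-like triple-negative breast cancer cell line. Both WT-AURKA clones carry a vector labelled pLUTZ mRFP, whose promoter responds to doxycycline, an AURKA cDNA labelled MUT2 WT and the guide sgAURKA2 against AURKA, and their labels give passages 32 to 35. The Empty line carries the same vector without cDNA and the guide sgCon, and its labels give passages 19 to 20. All cells were kept in doxycycline, in serum and under normoxia. Each WT-AURKA line is 1 clone and both clones share 1 guide, so the cDNA, the guide, the passage and the derivation from a clone differ together between WT-AURKA and Empty and cannot be told apart.

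Aurora A is a serine/threonine kinase that matures centrosomes and builds the mitotic spindle. It is switched on by binding TPX2, which holds it on spindle microtubules, and it is degraded as cells leave mitosis. Outside mitosis it acts in disassembly of the primary cilium, where the scaffold NEDD9 activates it, and it is often abundant in breast tumours.

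Values are RPKM, read numbers scaled to transcript length and to the mapped total of the library, and differences are in log2(RPKM + 1), a scale that understates the change of low genes. The 8 libraries fell into the 2 letter sets of the series. D and E belong to the set A to H, in which the nuclear RNA MALAT1 was at 235 RPKM in WT-AURKA c1 D, against 561 RPKM in Empty E. In the set I to Z it was at 20.4 to 30.6 RPKM in the WT-AURKA libraries, against 12.8 to 16.3 RPKM in Empty I and J. WT-AURKA c2 has no A to H library, so the counts over all genes are also given from the I to Z libraries alone.

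The 2 clone labels did not separate the WT-AURKA libraries. Among the 4 I to Z libraries, the root-mean-square difference over all tested genes was 0.163 to 0.225 log2 between a c1 and a c2 library, against 0.181 and 0.202 log2 between the libraries of 1 clone. For comparison, it was 0.398 to 0.425 log2 between the 2 NES-AURKA clones and 0.336 to 0.369 log2 between the 2 NLS-AURKA clones. The nearest pairs, O with R and P with Q, carried different clone labels. The median squared difference between their estimated reads was still 2.0 and 1.9 times what counting error gives, so no library was taken as a copy of another. For the pairs with the same clone label, O with P and Q with R, it was 4.44 and 2.93 times. Between I to Z libraries of 1 line elsewhere it ran from 1.41 (M with N) to 30.3 times (W with X). Agreement in both clones is therefore agreement between 2 sets of libraries, not between 2 lines that these profiles tell apart. The limma test of c1 against c2 called 0 of 12589 genes (0%), with 57 genes at an unadjusted p under 0.05.

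The A to H library of WT-AURKA, D, lay at 0.598 to 0.618 log2 from O, P, Q and R, while its distance to the other A to H libraries was 0.48 to 0.637 log2. The other lines were split by letter set too, with Empty E at 0.696 and 0.672 log2 from Empty I and J, and 0.565 to 0.789 log2 between the A to H and the I to Z libraries of the 6 remaining lines. D differed from O, P, Q and R in the targeted gene. AURKA was at 84.1, 14.1 and 12.8 RPKM in WT-AURKA c1 (D, O and P) and at 12.7 and 14.3 RPKM in WT-AURKA c2 (Q and R), against 51.8, 68.5 and 64.6 RPKM in Empty (E, I and J). AURKA was thus lower in 4 of 5 WT-AURKA libraries than in any Empty library and highest of all 8 in D. The fitted difference was -2.10 ± 0.58 (SE) in c2, with a limma adjusted p of 0.027, and -1.25 ± 0.52 (SE) in c1, with an adjusted p of 0.13. Without D the difference in c1 was -2.10 with an adjusted p of 0.0020. The call in c2 was lost when Q, R, I or J was left out (adjusted p = 0.20, 0.17, 0.078 and 0.074), and in the I to Z libraries alone both clones were called, at -2.22 in each. Gene-level RPKM do not separate reads of the cDNA from those of the endogenous gene, and how reads of the cDNA were aligned is not given in the sources used here.

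TPX2, the spindle activator of Aurora A, was at 99.2, 81.4 and 94.1 RPKM in WT-AURKA c1 and 90.6 and 79.7 RPKM in WT-AURKA c2, against 51.6, 112 and 103 RPKM in Empty. The groups overlapped, because Empty E lay below and Empty I and J above every WT-AURKA library, and the difference of 0.12 ± 0.37 (SE) in c1 and 0.01 ± 0.42 (SE) in c2 was not called (adjusted p = 0.93 and 0.99). It changed sign in the I to Z libraries alone, at -0.29 and -0.33. Of the 26 tested genes listed as activators and partners of Aurora A, 0 were higher and 1 was lower in both clones, where 1.7% and 0.921% of all genes were. That gene was NEDD9, at 0.345, 0.368 and 0.299 RPKM in WT-AURKA c1 and 0.312 and 0.259 RPKM in WT-AURKA c2, against 2.88, 2.55 and 2.23 RPKM in Empty. Its difference was -1.41 ± 0.21 (SE) in c1 and -1.46 ± 0.23 (SE) in c2 (adjusted p = 9.7e-05 and 0.0003).

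Of 41 listed G2/M and mitosis genes and 32 listed DNA replication genes, limma called 0 in both clones, where 1.7% of all genes were called higher and 0.921% lower; 1 mitosis gene and 1 replication gene had an unadjusted p under 0.05 in the same direction in both clones, as did 17.3% of all tested genes. The mitosis list had a median log2 difference of 0.96 in D against E and of -0.21 (c1) and -0.25 (c2) in the I to Z libraries, against medians over all tested genes of 0.07, -0.05 and -0.08. D was thus above E for mitosis genes, whereas O, P, Q and R lay below I and J. For the single gene TPX2, D was at 99.2 RPKM, near O, P, Q and R at 79.7 to 94.1 RPKM. E was at 51.6 RPKM, below I and J at 112 and 103 RPKM. Whether the mitosis difference of D from E lies in D or in E was not tested. In bulk RNA, a change in the share of cells of a kind and a change in RNA per cell cannot be told apart, and the part of cycling cells in the results below was not tested.

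**Figure D1:**
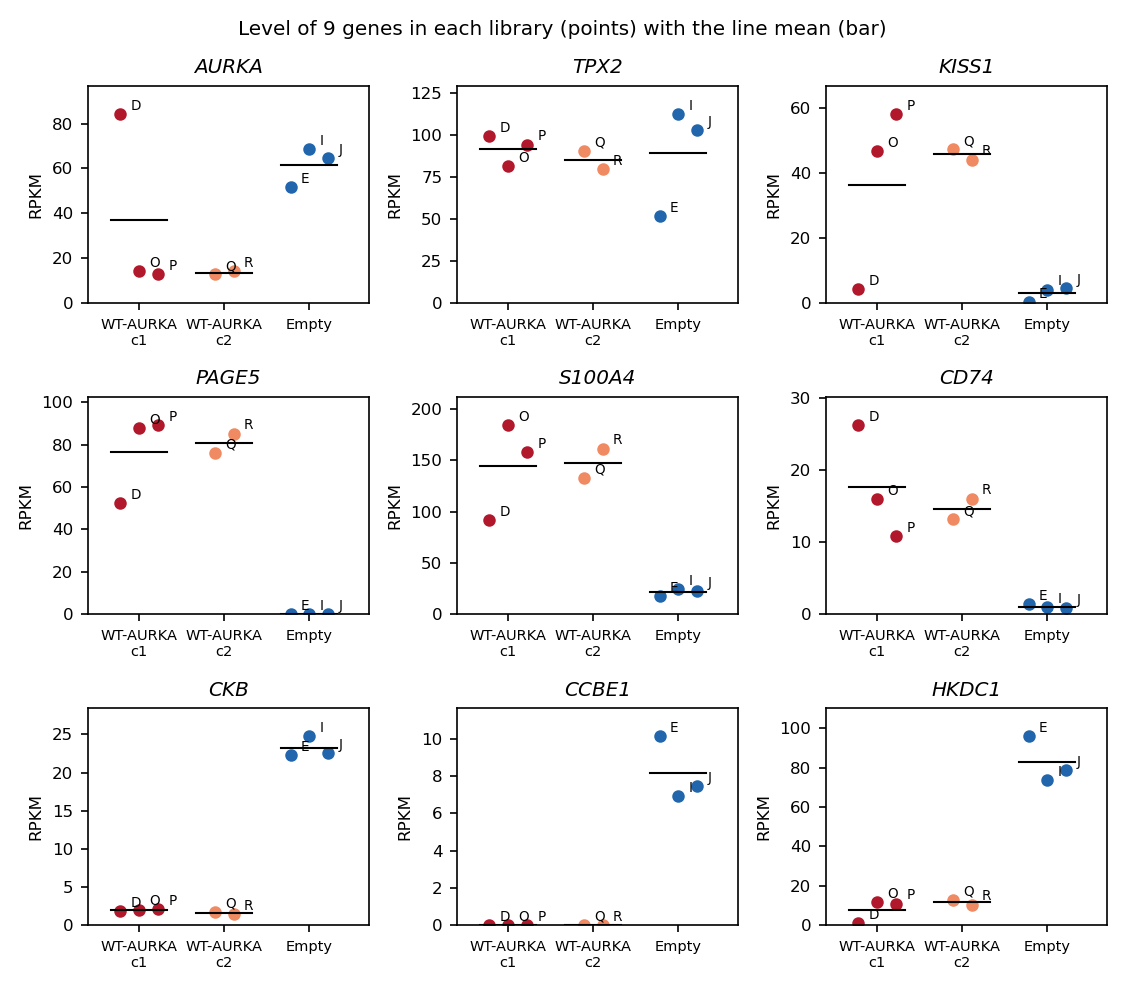
RPKM (vertical axes, linear, from 0) of 9 genes in each library, with WT-AURKA c1 and c2 left of Empty; points are libraries with their letters and bars are line means. AURKA in library D, at 84.1 RPKM, lies above Empty while the other 4 WT-AURKA libraries lie at 12.7 to 14.3 RPKM; KISS1 in D, at 4.18 RPKM, lies among the Empty libraries.

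Both clones against Empty gave 214 genes higher (1.7% of 12589 tested) and 116 lower (0.921%). A call needed a Benjamini-Hochberg adjusted p under 0.05 and an absolute log2 difference of at least 1 in each clone. A gene near 0 in Empty can pass the filter through WT-AURKA but cannot be called lower. A gene near 0 in WT-AURKA likewise cannot be called higher, and both hold for the list counts below. Alone, c1 gave 284 higher (2.26%) and 161 lower (1.28%), and c2 gave 258 higher (2.05%) and 144 lower (1.14%), with 0 genes called in opposite directions. Both comparisons use the same 3 Empty libraries, which by itself favours the same direction, so this agreement is not independent replication. Over all tested genes the difference between the 2 clones had a median size of 0.123 log2. The WT-AURKA and Empty libraries did not overlap in 26.5% of all tested genes and in 328 of the 330 genes called in both clones, so for called genes overlap is noted only where it occurred. Leaving out D gave 239 higher and 121 lower. Leaving out Q or R, which leaves c2 with 1 library assumed to vary like those of the other lines, gave 126 higher in either case and 72 or 73 lower. Below, a call is described as lost where it missed the limits in at least 1 clone without the library named or under the setting named. Every library whose removal lost a call is named, but not every other setting. Of the 62 called genes selected by the rule, 34 kept their call in every alternative run and 28 did not.

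**Figure D2:**
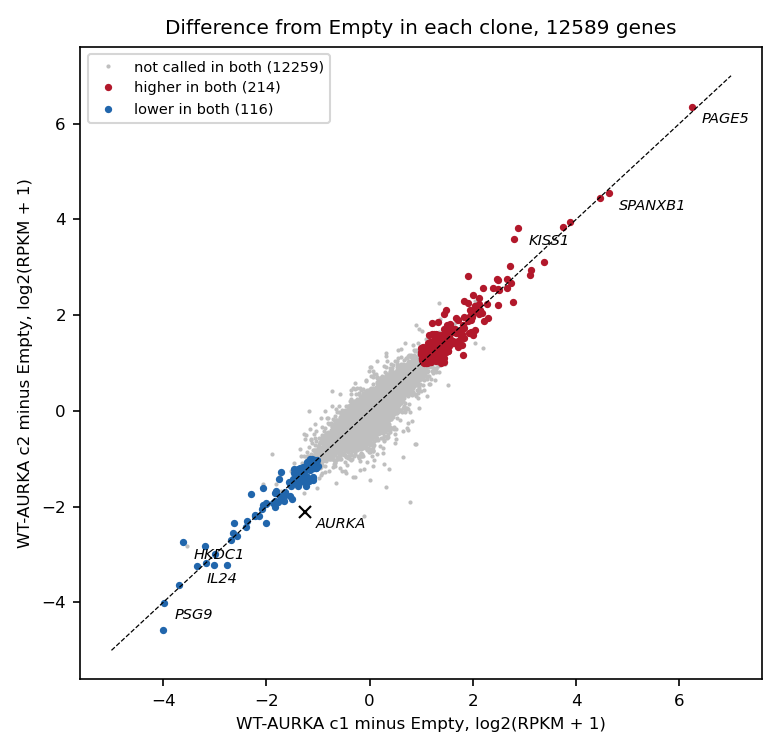
Difference from Empty in log2(RPKM + 1) of 12589 genes in WT-AURKA c1 (horizontal axis) and WT-AURKA c2 (vertical axis); each point is a gene, red points are the 214 called higher and blue points the 116 called lower in both clones, and the dashed line marks equal differences. The called genes lie along the line of equality, PAGE5 is at the upper end, and AURKA (cross) lies off the line at -1.25 in c1 and -2.10 in c2. Both axes use the same Empty libraries, which favours agreement.

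Libraries D and E allow a second look with no library in common. The I to Z libraries alone gave 279 genes higher (2.38% of 11717 tested) and 184 lower (1.57%) in both clones. Of the 279 higher genes, 266 were also higher in D than in E and 175 (62.7%) by a log2 difference of at least 1, a margin that 5.81% of all tested genes reached. Of the 184 lower genes, 176 were also lower in D than in E and 104 (56.5%) by that margin, which 3.25% of all tested genes reached. D with E is 1 library against 1, so this comparison carries no test.

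**Figure D3:**
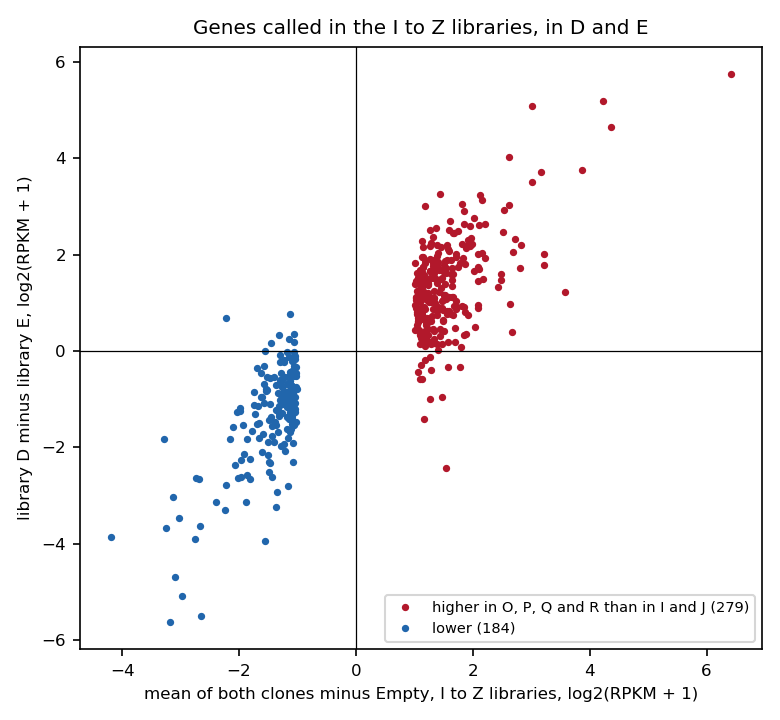
The 463 genes called in the I to Z libraries, with the mean of both WT-AURKA clones minus Empty there (horizontal axis) and library D minus library E (vertical axis), both in log2(RPKM + 1). Of the 279 higher genes (red) 266 lie above 0 on the vertical axis, and of the 184 lower genes (blue) 176 lie below it.

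Some genes were near 0 in every library of one group. PAGE5, a cancer-testis antigen of the X chromosome, was at 52.5, 88 and 89.2 RPKM in WT-AURKA c1 and 76.3 and 85.3 RPKM in WT-AURKA c2, and was listed at 0 in all 3 Empty libraries (adjusted p = 1.4e-08 and 7.6e-08). CMKLR1, the receptor for the chemoattractant chemerin, was at 4.2 to 5.58 RPKM in WT-AURKA, against 0 to 0.0117 RPKM in Empty. CCBE1, a secreted protein that lets VEGF-C be processed in lymphatic growth, showed the opposite pattern at 0 to 0.0109 RPKM in WT-AURKA, against 6.94 to 10.1 RPKM in Empty. DAPK1, a calcium/calmodulin-dependent kinase of cell death, was at 0 to 0.0225 RPKM in WT-AURKA, against 5.01 to 11.5 RPKM in Empty. CXCR4, the receptor for the chemokine CXCL12 and a known mediator of homing to metastatic sites, was at 0 to 0.12 RPKM in WT-AURKA, against 3.23 to 5.88 RPKM in Empty.

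The 300 bases around the start of these 5 genes (250 before and 50 after) are shown because the genes were on in one group and near 0 in the other, and CG pairs, the sites of DNA methylation, are in capitals. The sequences are from RefSeq, build GRCh38.p14, each on the strand of its gene, and methylation was not measured.
PAGE5, chrX:55220096-55220395, plus strand: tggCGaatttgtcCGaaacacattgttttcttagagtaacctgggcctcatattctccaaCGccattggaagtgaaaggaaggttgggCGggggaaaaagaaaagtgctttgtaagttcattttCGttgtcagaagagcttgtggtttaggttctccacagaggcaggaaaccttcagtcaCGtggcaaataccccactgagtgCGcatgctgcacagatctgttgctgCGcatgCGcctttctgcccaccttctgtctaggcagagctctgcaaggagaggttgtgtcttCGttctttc
CMKLR1, chr12:108320593-108320892, minus strand: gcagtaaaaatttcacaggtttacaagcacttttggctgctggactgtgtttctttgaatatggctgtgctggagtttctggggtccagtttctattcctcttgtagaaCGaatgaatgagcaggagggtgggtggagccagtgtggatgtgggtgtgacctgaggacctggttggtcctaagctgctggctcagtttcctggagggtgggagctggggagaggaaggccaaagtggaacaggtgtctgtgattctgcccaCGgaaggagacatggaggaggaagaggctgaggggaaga
CCBE1, chr18:59697374-59697673, minus strand: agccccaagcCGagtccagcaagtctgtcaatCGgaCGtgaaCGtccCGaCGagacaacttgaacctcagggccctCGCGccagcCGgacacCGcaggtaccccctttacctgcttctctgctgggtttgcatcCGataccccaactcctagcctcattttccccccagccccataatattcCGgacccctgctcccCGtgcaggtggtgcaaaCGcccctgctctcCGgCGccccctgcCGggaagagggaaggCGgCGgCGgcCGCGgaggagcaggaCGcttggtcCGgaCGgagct
DAPK1, chr9:87497617-87497916, plus strand: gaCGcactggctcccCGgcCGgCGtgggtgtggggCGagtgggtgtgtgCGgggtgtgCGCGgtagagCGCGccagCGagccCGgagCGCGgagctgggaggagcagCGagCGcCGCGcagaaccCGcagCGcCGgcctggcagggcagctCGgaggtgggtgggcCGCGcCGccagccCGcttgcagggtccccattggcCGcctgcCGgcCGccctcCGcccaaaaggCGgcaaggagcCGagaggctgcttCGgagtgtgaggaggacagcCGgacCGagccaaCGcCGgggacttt
CXCR4, chr2:136118100-136118399, minus strand: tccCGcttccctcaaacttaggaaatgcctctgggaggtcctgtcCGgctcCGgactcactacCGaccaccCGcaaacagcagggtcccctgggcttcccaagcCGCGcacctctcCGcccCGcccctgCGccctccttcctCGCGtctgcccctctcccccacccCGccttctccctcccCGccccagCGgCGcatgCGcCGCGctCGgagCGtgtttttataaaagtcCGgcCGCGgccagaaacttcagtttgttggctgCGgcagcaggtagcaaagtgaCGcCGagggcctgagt
The CG pairs, which read the same on both strands, numbered 10 for PAGE5 and 2 for CMKLR1, the genes on in WT-AURKA, and 25 for CCBE1, 37 for DAPK1 and 27 for CXCR4, the genes on in Empty. Over all 35116 RefSeq promoters of this length the median was 14. As many pairs or more were found in 56.4% of promoters for PAGE5, 89% for CMKLR1, 32% for CCBE1, 11.3% for DAPK1 and 28.2% for CXCR4. The genes were chosen after the values were seen, with limits of at least 4 RPKM in every WT-AURKA library and under 0.2 RPKM in every Empty library, or at least 3 RPKM in every Empty library and under 0.2 RPKM in every WT-AURKA library. HLA-DRA, PGM5 and PSG9, described below, and an antisense RNA of X met the same limits. No promoter sequence was available for these, so the CG numbers cover only the genes that had one.

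Cancer-testis genes are normally active in germ cells and placenta and reappear in tumours. Of 54 listed members measured, 19 passed the filter, and 12 of these were higher and 0 lower in both clones, where 1.7% of all genes were higher. Members near 0 in Empty passed the filter only through libraries other than Empty and could not be called lower. PAGE5, for example, passed through the WT-AURKA libraries in which it is then counted as higher. The filter thus favours higher members in these counts and in the median. The median log2 difference was 1.49 in c1 and 1.88 in c2, against -0.01 and -0.03 over all tested genes. It was 1.80 and 1.85 in the I to Z libraries, but 0.495 in D against E. SPANXB1, a sperm nuclear protein, was at 643, 882 and 864 RPKM in WT-AURKA c1 and 752 and 745 RPKM in WT-AURKA c2, against 16.6, 40.4 and 43.7 RPKM in Empty (difference 4.63 ± 0.39 (SE) and 4.55 ± 0.44 (SE)). MAGEC1 was at 12.9 to 21 RPKM in WT-AURKA, against 0.357 to 1.56 RPKM in Empty, with D the highest library. MAGEA3, a cofactor of ubiquitin ligases, was at 1.34, 12.2 and 12.1 RPKM in WT-AURKA c1 and 13.4 and 10.4 RPKM in WT-AURKA c2, against 0, 0.138 and 0.0481 RPKM in Empty. D was the lowest WT-AURKA library for MAGEA3. MAGEC2 was at 2.45 to 7.14 RPKM in WT-AURKA, against 0.0494 to 0.067 RPKM in Empty, also lowest in D among WT-AURKA libraries. MAGE and SPANX genes have close relatives, and how reads that match several of them were assigned is not given, so the split among members is uncertain.

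Several genes of antigen presentation and of the interferon response rose. CD74, the invariant chain that guides MHC class II molecules, was at 26.2, 16 and 10.8 RPKM in WT-AURKA c1 and 13.2 and 16 RPKM in WT-AURKA c2, against 1.41, 0.921 and 0.772 RPKM in Empty, with D the highest (difference 3.12 ± 0.38 (SE) and 2.95 ± 0.43 (SE), adjusted p = 1.2e-05 and 0.00012). HLA-DRA, the alpha chain of HLA-DR, was at 4.54 to 8.0 RPKM in WT-AURKA, against 0.0384 to 0.156 RPKM in Empty, and HLA-DMA, which loads peptides, was at 1.87 to 4.36 RPKM in WT-AURKA, against 0.388 to 0.868 RPKM in Empty. These were the 3 of 8 tested class II genes that rose, with 0 that fell, where 1.7% of all genes rose. Of 13 listed class II genes, 8 passed the filter. HLA-DRA and HLA-DMA were under 1 RPKM in every Empty library and could not be called lower. They passed through libraries other than Empty, WT-AURKA among them, so the filter favours higher members in this count. Of 16 tested class I genes 1 rose, HLA-B, at 67.1 to 99.1 RPKM in WT-AURKA, against 17.4 to 20.4 RPKM in Empty, and 0 fell. HLA genes are variable and closely related, so their RPKM depend on how reads were assigned. The call of HLA-DMA was lost without E or R, in the I to Z libraries alone (0.90 in c2), and with NES-Empty or NLS-Empty in place of Empty (0.78 and 0.98 in c2), and in the I to Z libraries 2 of the 8 class II genes rose.

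Of 45 tested interferon-stimulated genes 4 rose and 1 fell, against 1.7% and 0.921% of all genes, and the list median was 0.38 in c1 and 0.33 in c2. BST2, a membrane tether of budding virus particles, was at 37.5 to 49.5 RPKM in WT-AURKA, against 5.06 to 8.18 RPKM in Empty (difference 2.65 ± 0.30 (SE) and 2.56 ± 0.34 (SE)). SAMD9 was at 10.8 to 25.1 RPKM in WT-AURKA, against 2.55 to 3.66 RPKM in Empty, and IFI44 at 5.36 to 12 RPKM in WT-AURKA, against 1.38 to 1.64 RPKM in Empty, both highest in D. IFI27 went the other way, at 1.55 to 2.44 RPKM in WT-AURKA, against 5.85 to 8.4 RPKM in Empty. The calls of SAMD9 and IFI27 were lost without Q or R, and that of IFI44 with NES-Empty in place of Empty, where its difference in c2 was 0.78 (adjusted p = 0.095). Of 9 leukocyte markers 7 stayed under 1 RPKM in all 8 libraries and ITGAM was at 0, and their summed level was 29.6 to 35.3 RPKM in WT-AURKA, against 28.0 to 49.4 RPKM in Empty.

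At the upper end stood 4 further genes. SRGN, the proteoglycan core of secretory granules, was at 77, 106 and 144 RPKM in WT-AURKA c1 and 120.0 and 107 RPKM in WT-AURKA c2, against 1.29, 14.9 and 12.9 RPKM in Empty (difference 3.74 ± 0.61 (SE) and 3.84 ± 0.69 (SE)). SYK, a tyrosine kinase of immune receptors, was at 6.67 to 12.6 RPKM in WT-AURKA, against 0.32 to 1.24 RPKM in Empty, and LAPTM5, a lysosomal membrane protein, at 24.2 to 31.3 RPKM in WT-AURKA, against 1.68 to 5.78 RPKM in Empty. SH3BGRL, a small adaptor-like protein encoded on the X chromosome, was at 21 to 26.6 RPKM in WT-AURKA, against 0.0213 to 0.26 RPKM in Empty.

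**Figure D4:**
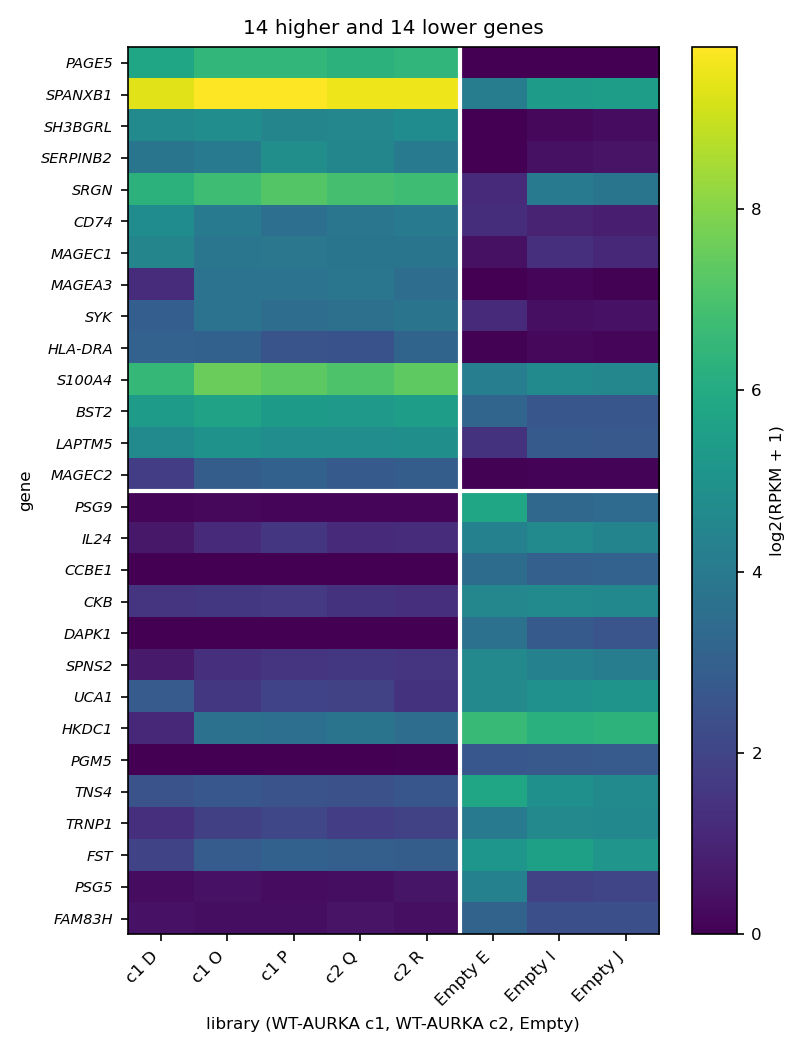
Levels in log2(RPKM + 1) (colour) of the 14 genes with the highest and the 14 with the lowest differences by the rule for named genes (rows) in each library (columns), with WT-AURKA c1 and c2 left of Empty. The 5 WT-AURKA columns are alike within most rows, and MAGEA3, MAGEC2 and HKDC1 are lower in D than in the other WT-AURKA libraries.

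The study set these profiles beside metastasis in xenografts, and of 31 tested breast cancer metastasis genes 6 rose and 2 fell, where 1.7% of all genes rose and 0.921% fell. KISS1, a metastasis suppressor peptide, was at 4.18, 46.7 and 58 RPKM in WT-AURKA c1 and 47.3 and 44.1 RPKM in WT-AURKA c2, against 0.277, 4.14 and 4.56 RPKM in Empty. It was high in O, P, Q and R, but D overlapped with Empty I and J, and within the A to H set D exceeded E. The difference was 2.88 ± 0.85 (SE) in c1 and 3.81 ± 0.95 (SE) in c2 (adjusted p = 0.03 and 0.015). CD82, a tetraspanin also known as a metastasis suppressor, was at 15.8 to 30.8 RPKM in WT-AURKA, against 2.56 to 3.5 RPKM in Empty, with D the highest (difference 2.49 ± 0.25 (SE) and 2.20 ± 0.28 (SE)). SERPINB2, an inhibitor of the plasminogen activator urokinase, was at 12.8, 14.8 and 27.3 RPKM in WT-AURKA c1 and 21.3 and 15.6 RPKM in WT-AURKA c2, against 0.0179, 0.364 and 0.414 RPKM in Empty. The call of KISS1 was lost without E, O, P, Q or R and in c1 with NES-Empty or NLS-Empty in place of Empty, and that of SERPINB2 without Q. The 2 lower members of the list were CXCR4 and NEDD9.

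S100A4, a calcium-binding protein linked to motility, was at 91.5, 184 and 158 RPKM in WT-AURKA c1 and 133 and 162 RPKM in WT-AURKA c2, against 17.4, 24.1 and 22 RPKM in Empty (difference 2.67 ± 0.54 (SE) and 2.75 ± 0.60 (SE), adjusted p = 0.0023 and 0.0062). It was 1 of 4 mesenchymal genes of 21 tested that rose, where 1.7% of all genes rose, and 0 fell. GNG11, a G-protein gamma subunit, was at 10.8 to 21.5 RPKM in WT-AURKA, against 0.885 to 3.67 RPKM in Empty. MSN, the membrane-cytoskeleton linker moesin, was at 207 to 275 RPKM in WT-AURKA, against 78.6 to 126 RPKM in Empty, and CAV2, a caveola protein, at 26.3 to 35.6 RPKM in WT-AURKA, against 10.5 to 15.9 RPKM in Empty. MSN and CAV2 changed by little more than the limit of 1. Of 21 S100 and annexin genes tested, S100A4 and S100A3 rose and 0 fell, with S100A3 at 7.24 to 10.3 RPKM in WT-AURKA, against 2.63 to 3.21 RPKM in Empty. In the I to Z libraries alone 2 genes of that list rose and 1 fell, where 2.38% and 1.57% of all genes did. The call of S100A4 was lost without Q or R and with NES-Empty or NLS-Empty in place of Empty, that of GNG11 without R, that of MSN without E, O, P, Q or R, and those of CAV2 and S100A3 without any 1 of the libraries other than D and with either of those lines in place of Empty.

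Of 31 tested genes of epithelial junctions and polarity 6 fell and 0 rose, where 0.921% of all genes fell, and the list median was -0.66 in c1 and -0.65 in c2. EPCAM, an epithelial adhesion molecule, was at 1.72, 2.63 and 2.43 RPKM in WT-AURKA c1 and 1.99 and 2.21 RPKM in WT-AURKA c2, against 7.11, 13.3 and 13.2 RPKM in Empty (difference -1.87 ± 0.25 (SE) and -1.93 ± 0.27 (SE)). OCLN, the tight junction protein occludin, was at 3.64 to 4.77 RPKM in WT-AURKA, against 14.5 to 19.6 RPKM in Empty, and ESRP2, an epithelial splicing regulator, at 0.0355 to 0.178 RPKM in WT-AURKA, against 2.17 to 3.21 RPKM in Empty. MAL2, an apical trafficking protein, was at 8.66, 30.4 and 28.9 RPKM in WT-AURKA c1 and 29.2 and 30.8 RPKM in WT-AURKA c2, against 83.4, 115 and 111 RPKM in Empty. MAL2 was lower in D than in any other WT-AURKA library. The call of OCLN was lost without Q, and that of MAL2 without E, I, J, Q or R. The MAL2 call was also lost with NLS-Empty in place of Empty, in the 8 libraries alone, with a pseudocount of 0.1 and without a filter. Summed over 10 markers of mesenchymal-like triple-negative cells, the level was 1662 to 2146 RPKM in WT-AURKA, against 999 to 1717 RPKM in Empty. Over 16 luminal markers it was 313 to 507 RPKM in WT-AURKA, against 390 to 494 RPKM in Empty, and over 10 fibroblast markers it stayed at 0.441 to 0.942 RPKM in WT-AURKA and 0.456 to 1.24 RPKM in Empty.

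Among extracellular proteases and their inhibitors 2 of 32 tested genes rose and 2 fell, where 1.7% and 0.921% of all genes did. MMP14, a membrane-anchored collagenase, was at 94.9, 55.4 and 54.2 RPKM in WT-AURKA c1 and 59 and 56.4 RPKM in WT-AURKA c2, against 30.9, 17.6 and 16.6 RPKM in Empty (difference 1.61 ± 0.28 (SE) and 1.43 ± 0.31 (SE)). The related MMP15 was at 1.49 to 2.32 RPKM in WT-AURKA, against 4.62 to 7.4 RPKM in Empty, and MMP24 at 0.0669 to 0.531 RPKM in WT-AURKA, against 0.969 to 3.16 RPKM in Empty. MMP14 thus rose, with SERPINB2, while MMP15 and MMP24 fell. Of 34 integrin, laminin and collagen genes TNC, the matrix protein tenascin C, rose, at 3.02 to 4.38 RPKM in WT-AURKA, against 1.02 to 1.26 RPKM in Empty. ITGB3, the integrin beta-3 subunit, fell, at 1.13 to 1.6 RPKM in WT-AURKA, against 3.7 to 4.66 RPKM in Empty. The calls of MMP15 and ITGB3 were lost without E, Q or R, that of MMP14 without Q or R, that of MMP24 without I and that of TNC without D. In the I to Z libraries alone the calls of MMP15 and TNC were lost.

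Of 19 tested angiogenic and lymphangiogenic genes 6 rose and CCBE1 fell, where 1.7% and 0.921% of all genes did, and the median was 0.60 in c1 and 0.50 in c2. ROBO4, a guidance receptor of endothelium, was at 4.87 to 5.82 RPKM in WT-AURKA, against 0.678 to 0.957 RPKM in Empty, and ROBO1, a receptor for SLIT ligands, at 1.72 to 2.72 RPKM in WT-AURKA, against 0.0362 to 0.0771 RPKM in Empty. PGF, a ligand of the VEGF receptor FLT1, was at 1.11 to 3.08 RPKM in WT-AURKA, against 0.211 to 0.256 RPKM in Empty. ROBO4, ROBO1 and PGF were under 1 RPKM in every Empty library and could not be called lower. The filter, which 19 of 29 listed genes passed, thus favours higher members in this count. ROBO4 and the junction protein ESAM were the 2 of 4 tested endothelial markers that rose. ESAM was at 41.1 to 64.1 RPKM in WT-AURKA, against 18.3 to 28.1 RPKM in Empty, while 8 of 10 endothelial markers stayed under 1 RPKM in all 8 libraries. The call of ROBO1 was lost without E, I, J, Q or R, and that of ESAM without E, Q or R. The sum of the endothelial markers was 48.5 to 71.3 RPKM in WT-AURKA, against 19.9 to 29.6 RPKM in Empty.

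The pregnancy-specific glycoproteins, secreted proteins of the placenta encoded in 1 cluster, fell in 3 of 11 tested members of their list, with 0 higher, where 0.921% of all genes fell. PSG9 was at 0.0883, 0.171 and 0.104 RPKM in WT-AURKA c1 and 0.0882 and 0.108 RPKM in WT-AURKA c2, against 52.6, 8.66 and 9.59 RPKM in Empty. PSG5 was at 0.239 to 0.458 RPKM in WT-AURKA, against 2.76 to 18.5 RPKM in Empty, and PSG1 at 0.047 to 0.174 RPKM in WT-AURKA, against 1.69 to 8.97 RPKM in Empty. Empty E was several times higher than Empty I and J for all 3. The calls of PSG5 and PSG1 were lost without E, Q or R. The PSG genes are near-identical, so the split among them is uncertain.

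CKB, brain-type creatine kinase, was at 1.85, 2.03 and 2.05 RPKM in WT-AURKA c1 and 1.69 and 1.48 RPKM in WT-AURKA c2, against 22.3, 24.7 and 22.5 RPKM in Empty, a difference of -3.02 ± 0.12 (SE) and -3.23 ± 0.13 (SE) (adjusted p = 7.4e-13 and 1.8e-12). HKDC1, a hexokinase, was at 1.12, 11.4 and 10.9 RPKM in WT-AURKA c1 and 12.7 and 10.4 RPKM in WT-AURKA c2, against 95.9, 73.8 and 78.7 RPKM in Empty. HKDC1 was lowest in D, and its call was lost in the 8 libraries alone. PGM5, a phosphoglucomutase relative found at adhesion plaques, was at 0 to 0.0326 RPKM in WT-AURKA, against 5.23 to 5.94 RPKM in Empty. With NES-Empty in place of Empty the call of PGM5 was lost, and its difference was -0.34 in c1 and -0.35 in c2 (adjusted p = 0.45 and 0.55). HKDC1 was the 1 of 38 hypoxia and glycolysis genes that fell, with 0 that rose, where 0.921% and 1.7% of all genes did. Of 25 cholesterol genes 2 rose and 0 fell, against 1.7% and 0.921% of all genes, with medians of 0.35 in c1 and 0.54 in c2. INSIG1, the sterol-regulated retention factor of the SREBP pathway, was at 52.7 to 82 RPKM in WT-AURKA, against 17.1 to 26.9 RPKM in Empty, and EBP, a sterol isomerase, at 16.2 to 29 RPKM in WT-AURKA, against 5.0 to 9.57 RPKM in Empty. The call of INSIG1 was lost without any 1 of the 8 libraries, and that of EBP without E, O, Q or R.

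IL24, a cytokine of the interleukin-10 family, was at 0.555, 1.25 and 1.93 RPKM in WT-AURKA c1 and 1.31 and 1.39 RPKM in WT-AURKA c2, against 18.9, 24.4 and 20.5 RPKM in Empty (difference -3.35 ± 0.64 (SE) and -3.24 ± 0.72 (SE)), and its call was lost without Q or R. It and CXCL16, a membrane-bound chemokine at 0.336 to 0.668 RPKM in WT-AURKA, against 3.32 to 4.81 RPKM in Empty, were the 2 of 30 cytokine and NF-kB genes that fell, where 0.921% of all genes fell, and 0 rose. The list median was nevertheless above 0, at 0.38 in c1 and 0.44 in c2. In the I to Z libraries alone 4 genes of this list rose and 3 fell, where 2.38% and 1.57% of all genes did. FST, the activin antagonist follistatin, was at 2.98 to 7.27 RPKM in WT-AURKA, against 33.2 to 45.7 RPKM in Empty. ID2, an inhibitor of helix-loop-helix factors induced by BMP, was at 0.911 to 1.43 RPKM in WT-AURKA, against 2.77 to 6.3 RPKM in Empty. FST and ID2 were the 2 of 34 TGF-beta and BMP genes that fell, with 0 that rose. In the Wnt list of 28 the receptor FZD1 rose, at 7.38 to 8.84 RPKM in WT-AURKA, against 1.26 to 2.24 RPKM in Empty, and the co-receptor PTK7 fell, at 1.42 to 2.8 RPKM in WT-AURKA, against 5.54 to 9.65 RPKM in Empty. Of all genes 1.7% rose and 0.921% fell. With 0 to 2 genes called in a direction over all libraries, these counts describe the named genes and not the lists.

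SPNS2, the exporter of sphingosine-1-phosphate, was at 0.614 to 1.98 RPKM in WT-AURKA, against 16.6 to 23.1 RPKM in Empty, and TNS4, a focal adhesion protein, at 4.38 to 5.26 RPKM in WT-AURKA, against 24.7 to 54.3 RPKM in Empty. TRNP1, a nuclear protein that in mouse acts in cortical development, was at 1.5 to 3.26 RPKM in WT-AURKA, against 14.9 to 23.3 RPKM in Empty. FAM83H, known from enamel formation, was at 0.272 to 0.444 RPKM in WT-AURKA, against 4.19 to 7.63 RPKM in Empty. UCA1, a long non-coding RNA first described in bladder cancer, was at 1.68 to 5.94 RPKM in WT-AURKA, against 23.5 to 32.8 RPKM in Empty, and ABCG2, a drug efflux pump, at 0.677 to 1.34 RPKM in WT-AURKA, against 4.78 to 4.85 RPKM in Empty. D was the highest WT-AURKA library for UCA1 and ABCG2 and the lowest for SPNS2 and TRNP1. The call of UCA1 was lost without Q or R. ABCG2 was the 1 of 10 drug efflux transporters that fell, where 0.921% of all genes fell, and 0 rose. Among 11 EGF receptor and ligand genes, 12 keratins, 26 ATF4 and unfolded-protein stress genes, 24 immediate early genes, 5 basal breast markers and 6 nuclear non-coding RNAs, limma called 0 in both clones. At an unadjusted p under 0.05 in both clones, in the same direction, these lists held 2, 0, 0, 4, 1 and 0 genes, in the order given, and 17.3% of all tested genes passed that limit. In the I to Z libraries alone 2 EGF genes were called lower, where 1.57% of all genes were. There 1 stress gene and 1 immediate early gene were called higher, where 2.38% of all genes were.

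The called genes were unevenly spread over chromosomes, placed by symbol with the RefSeq table for GRCh38.p14 because the table gives no positions, for 11483 of 12589 genes. Chromosome X held 56 of the 214 higher genes (26.2%) and 3.54% of the placed genes tested. Of its 407 tested genes 13.8% were higher, where 1.7% of all genes were, and 1.47% were lower. The median difference over X was 0.63 in c1 and 0.61 in c2, 0.60 and 0.57 in the I to Z libraries, and 0.67 in D against E. The cancer-testis list gave 12 of the 56, and without that list 44 of 389 X genes (11.3%) were higher. PAGE5, SPANXB1, SH3BGRL, the MAGE genes, MSN and EBP, all named above, are X genes.

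Along X the difference was not even, and it changed near ZNF41, a zinc finger gene. From ZNF41 on, 55 of 302 genes were higher and 0 lower, 95.4% of genes lay above 0, and the median was 0.78 in c1 and 0.80 in c2. Before ZNF41, 1 of 105 genes was higher and 6 were lower, and the median was -0.17 in both clones. The place was chosen after the values were seen, so these medians are a description. In the other constructs, each against its own empty line, the median from ZNF41 on was 0.52 in NES-AURKA and 0.09 in NLS-AURKA.

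Smaller shifts of whole stretches were seen elsewhere. In 24 of the 34 windows of 15 neighbouring genes on chromosome 5, the mean of the 2 clone medians was -0.35 or less. All windows were scored by this mean. Over chromosome 5 the median was -0.36 in c1 and -0.41 in c2. On chromosome 7 it was 0.34 and 0.27, with 14 of 36 windows at 0.35 or more, and on chromosome 4 it was 0.28 and 0.24, with 12 of 28 windows at 0.35 or more. Chromosome 6 held 10 windows at -0.35 or less, from its start to the KLC4 region, and 10 at 0.35 or more, each of them after MYO6. Over the genome 70 of 755 windows were at 0.35 or more and 50 at -0.35 or less. Of the genes on chromosome 5, 1.35% were called higher and 2.12% lower, so most genes in these stretches moved by less than the limit for a call.

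**Figure D5:**
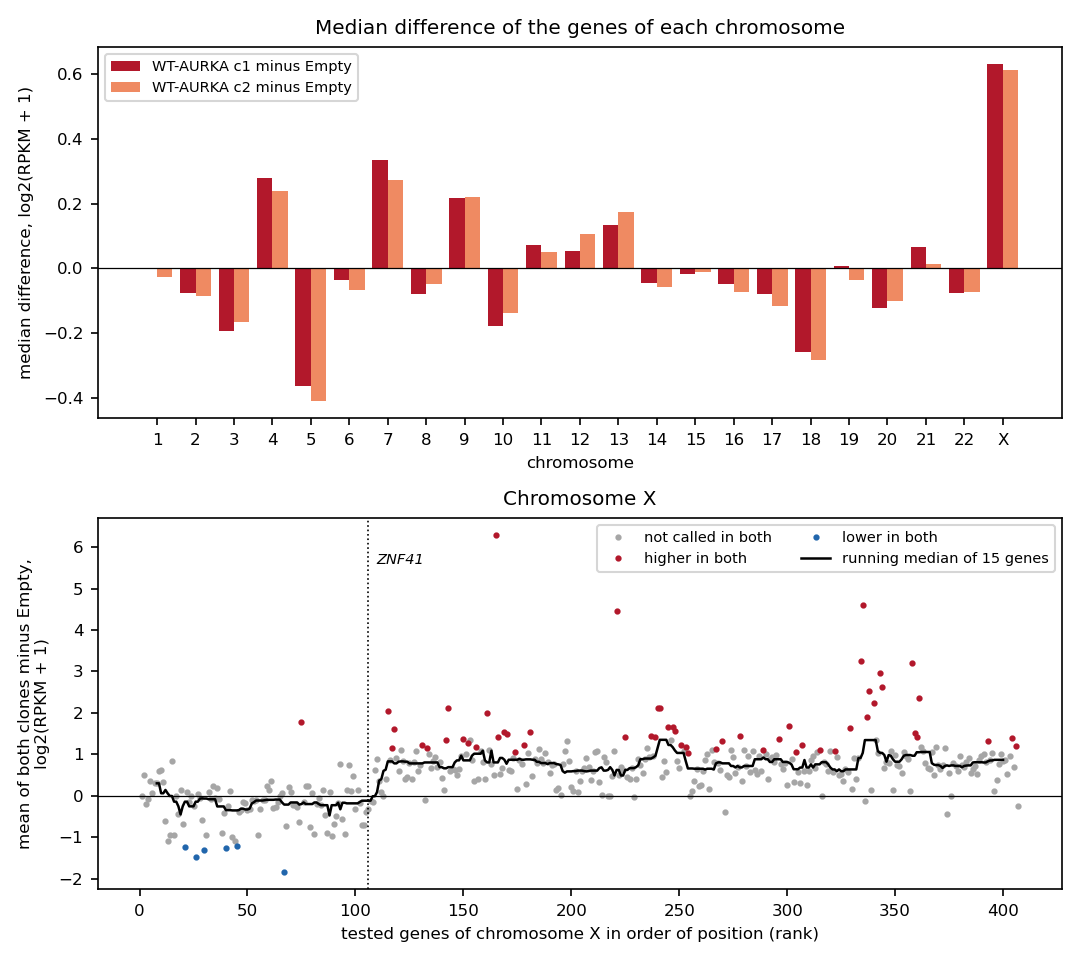
Above, the median difference from Empty in log2(RPKM + 1) of the tested genes of each chromosome in WT-AURKA c1 and WT-AURKA c2 (bars, from 0); below, the mean difference of both clones for the 407 tested genes of X in order of position, with a running median of 15 genes. Chromosome X has the highest median, at 0.63 and 0.61, chromosome 5 the lowest, at -0.36 and -0.41, and the running median on X lies near or below 0 before ZNF41 and above 0 after it.

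The WT-AURKA difference was tested against those of the other constructs, in the same fit. The test took the difference from Empty (mean of both clones) minus that of NES-AURKA from NES-Empty or of NLS-AURKA from NLS-Empty. WT-AURKA clones share guide and cDNA label with NES-AURKA clones, while NLS-AURKA clones carry another guide and cDNA label. Against NES-AURKA 31 genes were called (0.246% of 12589), and against NLS-AURKA 461 (3.66%). Both counts are from all 26 libraries, where only WT-AURKA c2 has no A to H library. The 330 genes changed in both WT-AURKA clones were chosen for large differences from Empty. The same values enter this test, which favours a larger change in WT-AURKA. Of these 330 genes, 12 differed from NES-AURKA and 106 from NLS-AURKA. For the others a difference was not detected, which does not show that the constructs act alike.

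Of the 330 genes, 9 differed from both other constructs in the direction of the WT-AURKA change, 7 higher and 2 lower. They are named here after their values were seen, and the choice of the 330 favours this direction. CKB differed by -1.40 ± 0.15 (SE) from NES-AURKA and -2.78 ± 0.15 (SE) from NLS-AURKA (limma adjusted p = 1.8e-05 and 2.9e-10), and PGM5 by -2.52 ± 0.29 (SE) from NES-AURKA and -2.25 ± 0.29 (SE) from NLS-AURKA (limma adjusted p = 9.3e-05 and 5.4e-05). BEX5, an X-linked gene of the brain-expressed family, was at 3.02 to 4.21 RPKM in WT-AURKA, where Empty was listed at 0, and differed by 2.09 ± 0.17 (SE) from NES-AURKA and 1.70 ± 0.17 (SE) from NLS-AURKA (limma adjusted p = 1.4e-06 and 2.9e-06). CD82 differed by 1.62 ± 0.31 (SE) from NES-AURKA and 1.01 ± 0.31 (SE) from NLS-AURKA (limma adjusted p = 0.014 and 0.047). In the I to Z libraries alone CD82 differed by 1.30 from NES-AURKA but by 0.73 from NLS-AURKA, below the limit of 1. CLIC2, an X-linked chloride channel family protein, was at 1.69 to 2.07 RPKM in WT-AURKA, against 0.0469 to 0.211 RPKM in Empty, ALDH3A1, an aldehyde dehydrogenase, at 1.12 to 2.4 RPKM in WT-AURKA, against 0.0126 to 0.0459 RPKM in Empty, and the cancer-testis gene MAGEA12 at 0.141 to 2.44 RPKM in WT-AURKA, where Empty was listed at 0, with D near Empty for MAGEA12. The remaining 2 of the 9 were the pseudogene DUXAP9 and a transcript with a clone-based name. PGM5 was low in NES-Empty as well, at 0.3 RPKM on average, against 5.6 RPKM in Empty, so its difference from NES-AURKA rests on the control line too.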

How the data were processed

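RNA was measured by sequencing in 26 libraries of 9 lines. Per the labels' protocols, RNA was extracted with a column kit from cultured cells and libraries were made with the KAPA mRNA Hyper Prep kit. Reads were processed on build hg19, for which the submitters' processing notes list Partek, HISAT2 and SAMtools. Versions, annotation, use of strand and handling of reads that fit several genes are stated neither in the labels nor in the file. Per the deposited table, expression is in RPKM values, 1 column per library, for 33562 gene symbols. RPKM are not counts, so no count test was run. Depth, estimated from the value of 1 read over 3474 genes with 1 GENCODE transcript, was 13900000 to 20300000 reads or fragments in the 8 libraries compared and 12200000 to 20300000 in the series, so values near 1 RPKM carry the most counting error.

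Genes with at least 1 RPKM in at least 2 libraries (12589) were tested in R 4.3.3 with limma 3.58.1 on log2 of RPKM plus a pseudocount of 1, using a mean-variance trend and 1 coefficient per line over all 26 libraries, so the other lines add to the estimate of the spread. P-values were adjusted by Benjamini-Hochberg over all genes tested. They reflect how far libraries of 1 line vary, which may be technical variation because separate cultures are not mentioned in the labels. The main fit had no letter-set term, so this spread includes the gap between the A to H and I to Z libraries of a line. That gap was 0.565 to 0.789 log2 in 6 lines, against 0.146 to 0.475 log2 between I to Z libraries of 1 line outside WT-AURKA. WT-AURKA c2 has no A to H library, while the Empty mean it was compared with includes E. On simulated data with known changes the same test was checked before use. The simulated noise was independent between genes and libraries and held no gap between letter sets. That check thus does not cover the effect of the gap. Tables were made with Python 3.11.15. Named genes are AURKA, TPX2, MALAT1 and NEAT1, the 14 highest and 14 lowest called in both clones by the smaller of the 2 absolute differences, requiring a mean of 5 RPKM or more on the higher side and groups that do not overlap, and up to 4 called members of each of 32 lists. Clone-based, LOC, LINC and antisense names were counted and not named. The members, the lists and the rule were chosen with earlier results of these data known. A few genes were chosen after their values were seen, as said there. Alternatives covered the letter sets, each library left out, the 8 libraries alone, the pseudocount, the filter, the empirical Bayes step, the scaling, the other empty lines and 1 value per line. WT-AURKA as 1 group of 5 libraries was added after seeing the data.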

Additional observations from a re-analysis of the deposited data

Results flagged for a closer look

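The differences below are those of WT-AURKA from Empty minus those of another construct from its own empty line, tested in the same limma fit on log2(RPKM + 1). In 14 of the 28 genes at the ends of the WT-AURKA comparison, the WT-AURKA difference lay beyond that of NLS-AURKA in the direction of the WT-AURKA change. The 28 were chosen for large WT-AURKA differences, which favours a larger change there, and 3.66% of all 12589 genes differed between these constructs. Among the genes higher in WT-AURKA these were PAGE5 by 4.58, S100A4 by 4.46, MAGEC1 by 3.88, SERPINB2 by 3.33, MAGEA3 by 3.21, SYK by 2.96, MAGEC2 by 2.60, LAPTM5 by 2.40 and SPANXB1 by 1.65. S100A4 and MAGEC1 lay below 0 in NLS-AURKA, at -1.75 and -0.90, against 2.71 and 2.98 in WT-AURKA. SYK and MAGEA3 lay near 0 in NLS-AURKA, at -0.09 and -0.02. Among the lower genes they were CCBE1 by -2.21, CKB by -2.78, DAPK1 by -2.13, PGM5 by -2.25 and FST by -2.19. The adjusted p-values of the 14 ran from 2.9e-10 to 0.04.

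In 3 of the 28 the change was smaller in WT-AURKA than in NLS-AURKA. HLA-DRA rose in both constructs, and its rise was smaller in WT-AURKA by 1.35 on the log2 scale (WT-AURKA minus NLS-AURKA -1.35, adjusted p = 0.032). HKDC1 and TNS4 fell in both, with differences of -3.17 and -2.59 in WT-AURKA, against -5.16 and -5.53 in NLS-AURKA. The differences between constructs were 1.98 and 2.94 (adjusted p = 0.029 and 0.00018). Against NES-AURKA, which shares guide and cDNA label with WT-AURKA, 2 of the 28 differed, CKB by -1.40 and PGM5 by -2.52 (adjusted p = 1.8e-05 and 9.3e-05). PGM5 was low in NES-Empty as well, as given above, so its difference from NES-AURKA rests on the control line too. In a limma fit of the I to Z libraries alone, CKB (-1.36) and PGM5 (-2.49) also differed from NES-AURKA. MAGEA3 (2.54), MAGEC2 (1.17), HKDC1 (1.11) and SPNS2 (-1.10) passed the limits there too (adjusted p = 2.7e-05, 0.0004, 0.0045 and 0.048). Against NLS-AURKA, SRGN (-2.27), TRNP1 (-1.29) and UCA1 (1.43) were added (adjusted p = 4.9e-05, 0.0001 and 0.0017). Guide and cDNA label differ together with the nuclear signal and cannot be told apart from it.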

How the results depend on the processing

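The limits of these data are 2 clone labels that the profiles do not separate, letter sets that set D and E apart from the other libraries of their lines, and 1 line as control. Of 2330 values of single named genes under an alternative, 2173 kept their direction and side of the threshold, 136 kept the direction and missed the threshold, and 21 changed sign, all of TPX2, MALAT1 or NEAT1, none of which was called. The counts of 214 higher and 116 lower genes moved by over 1.5 times with a pseudocount of 0.1 (407 and 202, with 213 and 109 of the main genes among them). For the lower genes they also did in the I to Z libraries alone (184), with a filter of 5 RPKM (74) and with 1 value per line against 3 control lines (192). Leaving out 1 library gave 126 to 239 higher and 72 to 139 lower. In every alternative limma called 0 genes between c1 and c2. AURKA in c1 was called at -2.22 in the I to Z libraries alone and lay at -2.10 to -0.79 when 1 library was left out. AURKA in c2 stayed at -2.10 but missed the threshold in the 8 libraries alone and without a filter (adjusted p = 0.13 and 0.067), and at -1.77 with NLS-Empty in place of Empty (0.068). It lay at -2.22 to -2.02 when 1 library was left out.

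TPX2 changed sign in the I to Z libraries alone (-0.29 in c1 and -0.33 in c2), without E (-0.23 and -0.33), with NES-Empty in place of Empty (-0.00985 and -0.11), and in c2 with a letter-set term (-0.20) and without Q (-0.08). MALAT1 did so in the I to Z libraries alone (0.59 and 0.94), without E (1.70 and 0.94), in c1 without O (0.47) or P (0.59) and in c2 with the letter-set term (0.57). NEAT1 did so without E (1.14 and 0.41), in c1 without O (0.23) or P (0.33) and with a pseudocount of 0.1 (0.069), and in c2 with the letter-set term (0.19). With 1 library left out, TPX2 ranged from -0.23 to 0.32 in c1 and from -0.33 to 0.22 in c2, MALAT1 from -1.14 to 1.70 and from -1.74 to 0.94, and NEAT1 from -1.05 to 1.14 and from -1.56 to 0.41. The cause of these shifts was not tested. Counting WT-AURKA as 1 group of 5 libraries, an alternative chosen after seeing the data, gave 305 higher and 159 lower, which include all of the main genes. No paired analysis was possible because the groups compared share no replicate numbers.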
